A study of Mus musculus with 10 samples.

Results

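The interleukin 15 axis was examined through 9 listed genes: the cytokine gene Il15, the receptor chain genes Il15ra, Il2rb and Il2rg, the transcription factor genes Tbx21 and Eomes, the pore-forming protein gene Prf1, and the natural killer (NK) cell receptor genes Ncr1 and Klrb1c. A gene was followed through the probe set that carried its symbol alone, and 8 of the 9 listed genes had one, among 19938 genes in all. Il2rg, the common gamma chain, is not analysed here. The listed genes were not chosen by a threshold on these arrays, but they and the gene lists below were chosen with earlier results of these data known. Counts set beside the share of all genes are therefore descriptions. The question is whether an early difference in the ligand came before late differences in the receptor and killer genes.

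Marrow was taken from the long bones of male Swiss mice aged 4 to 6 weeks, and every culture, control or treated, grew in αMEM with fetal calf serum and 1,25(OH)2D3, the active form of vitamin D. Adiponectin, which adipocytes release into the blood, was given to the treated cultures as a recombinant mouse protein at 5 µg/ml, and controls received vehicle. At each of 4, 10, 24, 72 and 120 h, 1 control culture and 1 adiponectin culture were put on an Affymetrix mouse array, which gives 10 arrays in 5 pairs. The series title names contamination with lipopolysaccharide, a bacterial product, so the treatment is called adiponectin here as in the labels, and the share of either agent in a difference cannot be told apart. Separate animals behind the cultures are not named in the labels, and each p-value therefore covers only how these cultures varied. Each group had 1 culture at each time, so in the tests of adiponectin this spread is that of the pair differences between times. It may be technical, and it also holds any change of the effect with time that a fit does not model.

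Values are log2 expression per array, and a difference of 1 on that scale is a 2-fold difference. Array medians over all genes lay between 8.27 and 8.48. The lowest was the 10 h control, 0.14 below the 10 h adiponectin array, while the 2 arrays of every other time differed by 0.022 or less. How many of all genes were above, or below, the array median on all 10 arrays was not counted. These are bulk cultures of mixed marrow cells, in which more cells of a type and more RNA per cell cannot be told apart.

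Interleukin 15 is a cytokine that NK cells need to develop and survive. It is made largely by myeloid and stromal cells, is held at their surface by the alpha chain of its receptor, encoded by Il15ra, and is shown from there to neighbouring lymphocytes, which sense it through the beta chain, encoded by Il2rb and shared with interleukin 2, together with the common gamma chain. In lymphocytes the signal runs through Jak kinases and Stat5, and mature killer cells carry the factors T-bet (Tbx21) and eomesodermin (Eomes) and store perforin (Prf1) with granzymes in their granules. Interferon regulatory factors and NF-kB are known activators of Il15 and Il15ra, which is why motifs for them were looked for.

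Promoter windows were available for 7 of the 9 listed genes, among them Il15ra, Eomes and Prf1, whose sequences are shown because these genes stand for the presenting receptor, the transcription factors and the killer effector of the results. Each is a 300-base window read 5′ to 3′ on the gene's strand from RefSeq (GRCm38.p6). The Il15ra window is chr2:11705462-11705761, the Eomes window chr9:118477939-118478238 and the Prf1 window chr10:61297586-61297885, all on the + strand. Capitals mark a match, on either strand, to the kappa B letters (GGG and CC with 5 bases between them) in Il15ra and Prf1 or to the interferon-stimulated element (GAAA repeated after 2 bases) in Eomes.

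Il15ra: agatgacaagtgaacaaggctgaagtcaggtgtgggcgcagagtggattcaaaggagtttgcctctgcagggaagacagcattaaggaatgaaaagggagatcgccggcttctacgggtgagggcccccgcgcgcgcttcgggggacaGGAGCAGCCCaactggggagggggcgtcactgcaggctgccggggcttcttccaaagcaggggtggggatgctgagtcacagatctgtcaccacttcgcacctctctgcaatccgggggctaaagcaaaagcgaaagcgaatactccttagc

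Eomes: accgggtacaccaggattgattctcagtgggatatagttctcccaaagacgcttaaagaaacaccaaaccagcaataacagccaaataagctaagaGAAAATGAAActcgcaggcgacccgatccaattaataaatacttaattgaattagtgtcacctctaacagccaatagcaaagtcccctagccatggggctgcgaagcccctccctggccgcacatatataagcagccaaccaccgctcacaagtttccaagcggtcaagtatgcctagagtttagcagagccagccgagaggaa

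Prf1: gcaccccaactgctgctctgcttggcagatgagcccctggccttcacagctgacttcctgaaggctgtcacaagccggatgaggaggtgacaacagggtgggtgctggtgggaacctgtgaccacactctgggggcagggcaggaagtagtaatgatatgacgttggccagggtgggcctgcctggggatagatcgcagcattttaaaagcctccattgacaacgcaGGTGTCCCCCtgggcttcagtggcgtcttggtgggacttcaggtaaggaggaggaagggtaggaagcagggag

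The kappa B letters are loose, and 50.8% of the 32851 promoter windows in the table hold them. The interferon-stimulated element lay in 3.44% of those windows, and the STAT element TTCNNNGAA in 8.30%. Among the windows of the 7 genes, the Eomes window alone matched the interferon-stimulated element and none matched the STAT element. The upstream Il15ra window and the Il2rg window matched none of the 3 motifs, whereas Tbx21, Ncr1 and Klrb1c each matched the kappa B letters. A match is a description of letters in a window and not a measured binding site.

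The ligand gene and its presenting receptor were higher with adiponectin from the first time point onward. Il15 lay at 9.45, 9.02, 9.47, 9.28 and 9.51 in the controls of 4, 10, 24, 72 and 120 h, and at 9.99, 10.02, 10.16, 10.07 and 10.28 in the adiponectin cultures of the same times. Every adiponectin array was thus above every control array, and how many of all genes were separated in this way was not counted. The mean difference was 0.76 ± 0.17 (SD, n = 5 pairs), or 1.69-fold, and it passed limma's test with time as a block (SE 0.081, adjusted p = 0.0003521). The difference was 0.54 at 4 h, 1.00 at 10 h, 0.69 at 24 h, 0.79 at 72 h and 0.77 at 120 h. The peak at 10 h falls in the pair whose array medians were unequal, and after centring every array on its own median the 10 h difference was 0.86, still the highest of the 5 times.

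Il15ra, which presents the cytokine to neighbouring cells, was at 8.83, 8.88, 9.11, 9.03 and 8.79 in the controls in order of time. In the adiponectin cultures it was at 9.61, 9.61, 10.09, 9.51 and 9.36. The lowest adiponectin array, that of 120 h, lay above the highest control array, that of 24 h, a separation that was not counted over all genes. The mean difference was 0.71 ± 0.19 (SD, n = 5 pairs), or 1.63-fold (SE 0.085, limma adjusted p = 0.0008764). The differences of 0.78 at 4 h, 0.73 at 10 h and 0.98 at 24 h were each above the 0.48 at 72 h and 0.57 at 120 h. After centring every array on its own median, the 10 h and 120 h differences were both 0.59, so 10 h was then no longer above 120 h. Both genes were above the array median on all 10 arrays.

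Over the 5 times, Il15 and Il15ra were the 2 of 8 measured genes that rose, against 2.05% of all genes, and 0 of 8 fell, against 0.371% of all genes. The same 2 genes were higher in all 5 pairs, as were 6.32% of all genes. The other 6 did not pass the test over all times: the adjusted p was 0.2031 for Il2rb and 0.2205 for Prf1, and from 0.4552 to 0.9292 for Klrb1c, Eomes, Tbx21 and Ncr1. Both calls also held with each pair left out in turn, but neither held in an ordinary linear model without limma's shared variance, where the adjusted p was 0.08834 for Il15 and 0.1307 for Il15ra.

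**Figure D1:**
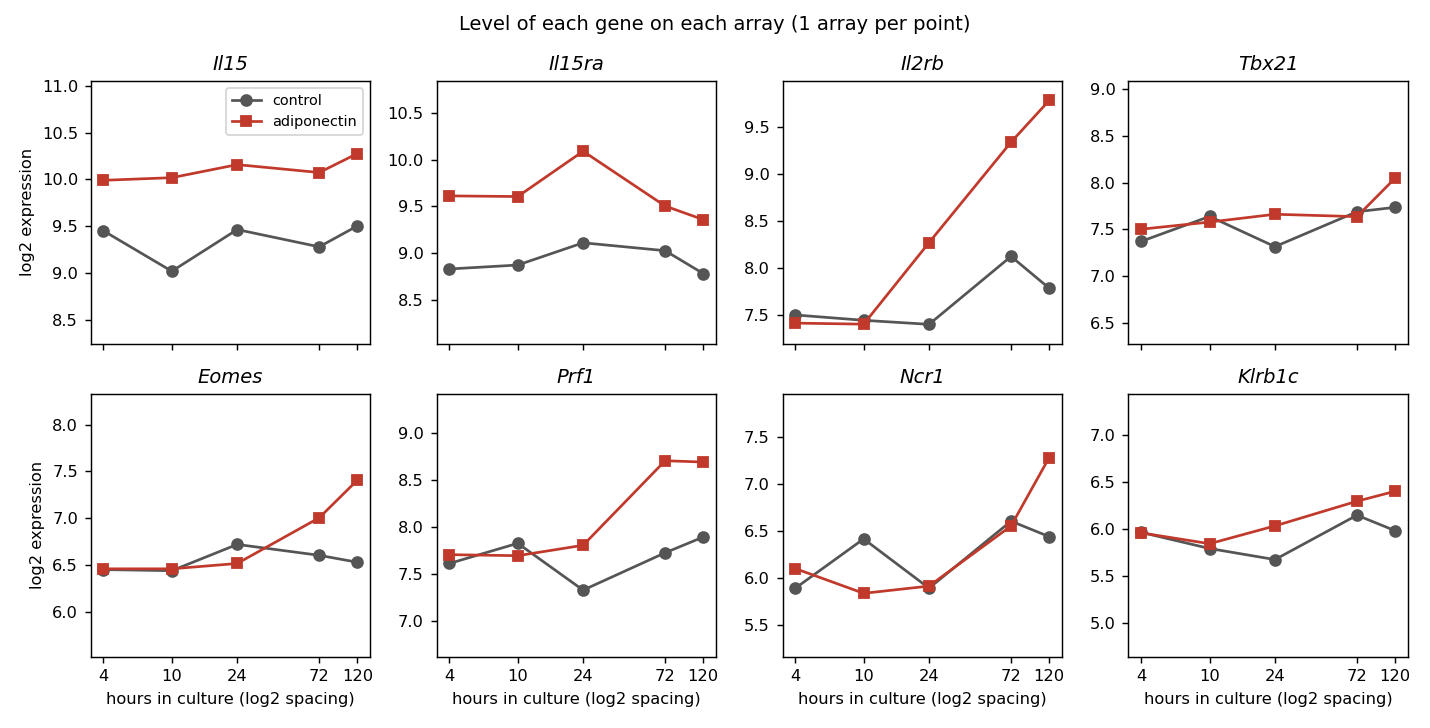
Log2 expression (vertical axes, each spanning the same width) of the 8 measured genes against hours in culture on a log2-spaced axis; each point is 1 array, grey circles are controls and red squares adiponectin cultures. The Il15 and Il15ra series are apart at all 5 times, while the Il2rb series coincide at 4 and 10 h and reach 7.78 and 9.78 at 120 h.

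Il2rb, the chain through which lymphocytes read both interleukin 15 and interleukin 2, had its largest differences at the late times. Its controls lay at 7.50, 7.44 and 7.40 at 4, 10 and 24 h and at 8.12 and 7.78 at 72 and 120 h. The adiponectin cultures were at 7.41 and 7.40 at 4 and 10 h, then at 8.27, 9.34 and 9.78 at 24, 72 and 120 h. The groups were within 0.09 of each other at the first 2 times and apart at the last 3, and the 2 late adiponectin arrays were the only ones on which Il2rb exceeded the array median. The differences were -0.09, -0.04, 0.87, 1.22 and 2.00 in order of time, so that the level was 2.33-fold higher at 72 h and 4.00-fold higher at 120 h in 1 pair each.

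Prf1, which encodes the protein that perforates target cell membranes, was at 7.61, 7.83, 7.33, 7.73 and 7.90 in the controls. With adiponectin it was at 7.71, 7.70 and 7.81 at 4, 10 and 24 h and at 8.71 and 8.70 at 72 and 120 h. The 2 late adiponectin arrays stood above all other arrays, and the early adiponectin arrays lay within the range of the controls. The differences were 0.10, -0.13, 0.48, 0.98 and 0.80, the largest being 1.97-fold at 72 h.

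To set early against late, the effects at 4, 10 and 24 h (3 pairs) and at 72 and 120 h (2 pairs) were estimated in a single limma fit. In the early cultures Il15 rose by 0.74 (95% interval 0.51 to 0.97, adjusted p = 0.006712) and Il15ra by 0.83 (0.63 to 1.03, adjusted p = 0.00159). These were 2 of 8 genes, against 1.79% of all genes higher, and 0 of 8 fell, against 0.476% of all genes. The early estimate was 0.25 for Il2rb (-0.21 to 0.71, adjusted p = 0.5152), 0.15 for Prf1 (-0.12 to 0.42, adjusted p = 0.513) and -0.06 for Eomes (-0.31 to 0.19, adjusted p = 0.7895). All of the early Il2rb and Prf1 difference came from the 24 h pair: without it the estimates were -0.06 for Il2rb and -0.02 for Prf1, and the early Il15 estimate was 0.77 with an adjusted p of 0.06142. Over all genes, the split of early calls moved with the scaling of the arrays, from 356 higher and 95 lower to 313 and 173 after median centring, and to 332 and 161 with the arrays quantile-normalized again.

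In the late cultures Il2rb rose by 1.61 (1.05 to 2.17, adjusted p = 0.023), Prf1 by 0.89 (0.56 to 1.22, adjusted p = 0.02982) and Il15 by 0.78 (0.50 to 1.06, adjusted p = 0.02682). These were 3 of 8 genes, against 0.863% of all genes higher, and 0 of 8 fell, against 0.0802% of all genes. Eomes missed the threshold at 0.64 (0.34 to 0.94, adjusted p = 0.08421), as did Il15ra at 0.53 (0.28 to 0.77, adjusted p = 0.07542). The late calls rest on 2 pairs. With the 72 h pair left out the adjusted p was 0.0762 for Il2rb, 0.6128 for Prf1 and 0.4698 for Il15, with the 120 h pair left out it was 0.5363, 0.359 and 0.4765, and with the 24 h pair left out Il15 was at 0.06531.

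**Figure D2:**
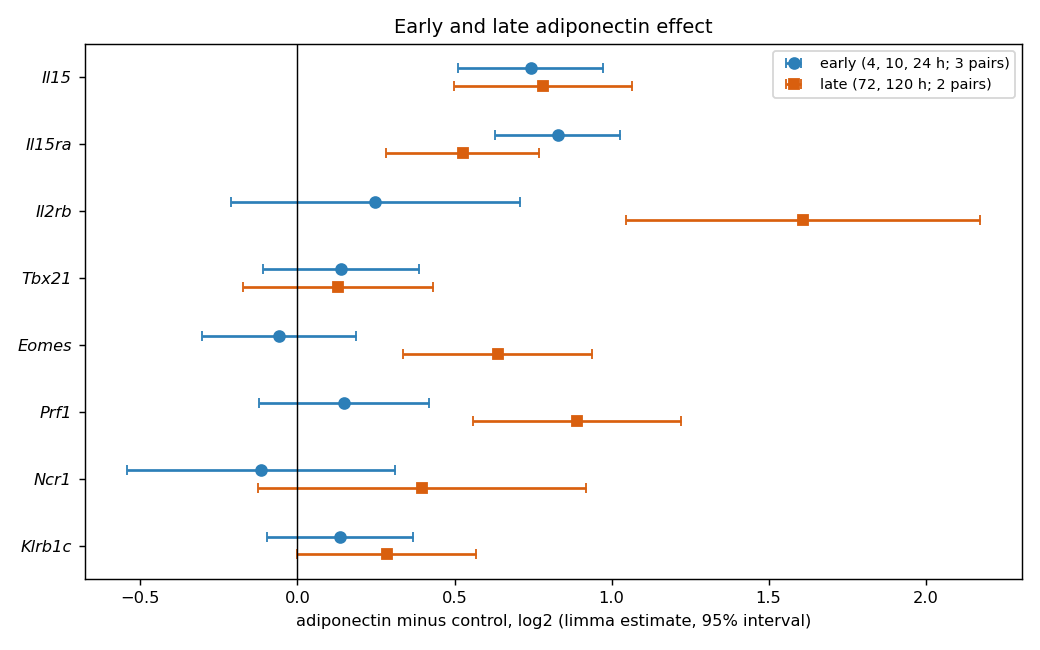
Estimated adiponectin minus control difference (log2, horizontal axis) for each measured gene; blue circles are the early effect over 3 pairs, orange squares the late effect over 2 pairs, and bars are 95% limma intervals. The early and late estimates of Il15 lie at 0.74 and 0.78, whereas those of Il2rb lie at 0.25 and 1.61.

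An early call beside a missing late one, or the reverse, does not show that the effects differ, so the late effect was also set against the early effect directly. The difference of late minus early was 1.36 for Il2rb (SE 0.32, unadjusted p = 0.00233), 0.74 for Prf1 (SE 0.19, unadjusted p = 0.003641) and 0.70 for Eomes (SE 0.17, unadjusted p = 0.003083). The adjusted p was 0.3398 for all 3. At that unadjusted threshold of 0.05 they were 3 of 8 genes above 0, against 3.55% of all genes, and 0 of 8 below 0, against 9.91%. After adjustment limma called 0 genes above and 0 below among all 19938 (0% each; 708 above and 1975 below at an unadjusted p under 0.05), as did the ordinary linear model. For Il15 the difference was 0.04 (-0.33 to 0.41, adjusted p = 0.9283), and its sign turned to -0.01 with the arrays quantile-normalized again. For Il15ra it was -0.30 (-0.62 to 0.01, adjusted p = 0.3808).

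The same question without a boundary between early and late used the slope of the adiponectin effect per doubling of the hours. For Il2rb the effect grew by 0.42 per doubling (SE 0.055, unadjusted p = 3.134e-05, adjusted p = 0.08873). The slope was 0.20 for Prf1 (adjusted p = 0.4379), 0.16 for Eomes (adjusted p = 0.4991), 0.02 for Il15 (adjusted p = 0.8603) and -0.05 for Il15ra (adjusted p = 0.6438). Again limma called 0 genes in either direction after adjustment (0% each; 620 above and 1339 below at an unadjusted p under 0.05), as did the ordinary linear model.

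Timing relative to the ligand was tested by subtracting the Il15 difference of each pair. The late minus early value relative to Il15 was 1.32 for Il2rb, 0.70 for Prf1 and 0.66 for Eomes, each with an exact two-sided permutation p of 0.2. For Ncr1 it was 0.47 (exact p = 0.6), for Klrb1c 0.11 (exact p = 0.9), for Tbx21 -0.05 (exact p = 0.8) and for Il15ra -0.34 (exact p = 0.3). With 3 pairs against 2 the smallest p this permutation test can give is 0.1, so it cannot pass 0.05. At 4 h, where 1 pair was measured, the differences were 0.54 for Il15 and 0.78 for Il15ra against -0.09 for Il2rb, 0.10 for Prf1 and 0.01 for Eomes.

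**Figure D3:**
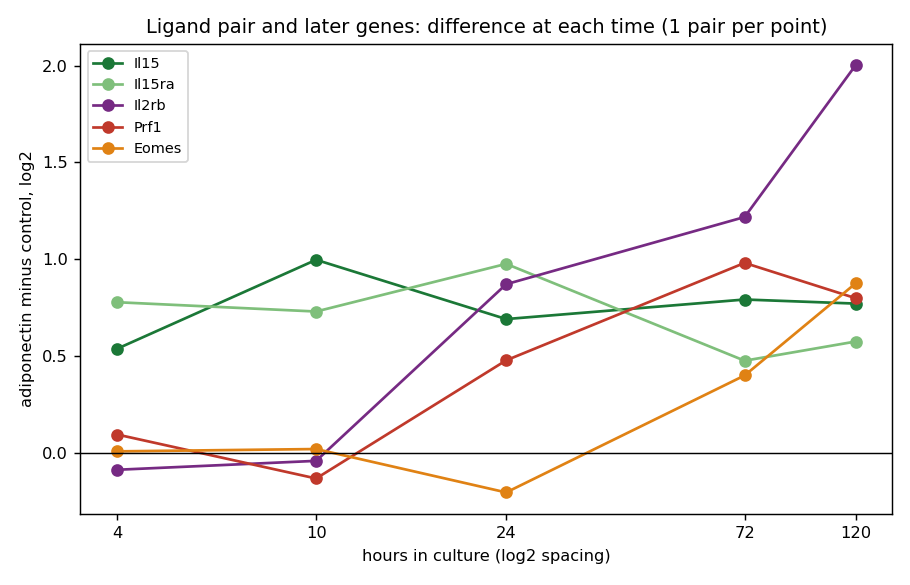
Adiponectin minus control difference (log2, vertical axis) at each time (hours, log2-spaced) for 5 genes, 1 pair per point. Il15 and Il15ra start at 0.54 and 0.78 at 4 h, whereas Il2rb starts at -0.09 and ends at 2.00 at 120 h.

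Counted by fold in single pairs, 0 of 8 genes were at least 2-fold higher with adiponectin at 4 h, 10 h and 24 h, where 0.727%, 0.893% and 0.853% of all genes were. At 72 h and 120 h it was 1 of 8, Il2rb both times, where 0.547% and 0.752% of all genes were. Il15 came to 1.995-fold at 10 h and Il15ra to 1.97-fold at 24 h, just under that fold.

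Among the NK transcription factor genes, Eomes was at 6.45, 6.44, 6.72, 6.61 and 6.53 in the controls and at 6.46, 6.46, 6.52, 7.01 and 7.41 with adiponectin. The 2 late adiponectin arrays were the highest, and the early ones lay within the range of the controls. Tbx21, which encodes T-bet, was between 7.32 and 7.74 in the controls and between 7.50 and 8.05 with adiponectin, and its groups overlapped. Its differences were 0.13, -0.06, 0.34, -0.05 and 0.31, a mean of 0.13 ± 0.19 (SD, n = 5 pairs). Both factor genes were below the array median on all 10 arrays.

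Ncr1, which encodes the activating receptor NKp46, lay between 5.89 and 6.61 in the controls and between 5.84 and 7.29 with adiponectin. The 120 h adiponectin array was the highest and the 10 h adiponectin array the lowest, so the differences ran from -0.58 at 10 h to 0.84 at 120 h. Klrb1c, another NK cell receptor gene, lay between 5.67 and 6.14 in the controls and between 5.84 and 6.40 with adiponectin. Its differences ran from -0.01 at 4 h to 0.42 at 120 h. Both receptor genes were below the array median on all 10 arrays, and the groups of each overlapped.

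Time in culture was tested as a slope per doubling of the hours beside treatment. Il2rb rose by 0.32 per doubling (limma adjusted p = 0.009249) and Ncr1 by 0.17 (adjusted p = 0.03934), 2 of 8 genes against 9.81% of all genes, and 0 of 8 fell, against 8.67%. After median centring the split over all genes turned from 1956 rising and 1728 falling to 1657 and 2300, and Ncr1 was no longer called (adjusted p = 0.07488). The Ncr1 slope passed in 2 of 13 alternatives. In the adiponectin cultures alone the slope was 0.53 for Il2rb (adjusted p = 0.01276), 0.24 for Prf1 (adjusted p = 0.0368) and 0.19 for Eomes (adjusted p = 0.04864). In the controls alone it was 0.11 for Il2rb (adjusted p = 0.2948) and 0.03 for Prf1 (adjusted p = 0.72). Between 4 and 120 h Il2rb thus moved from 7.41 to 9.78 with adiponectin and from 7.50 to 7.78 without it, and Il15 from 9.99 to 10.28 and from 9.45 to 9.51.

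The members fell into patterns that can be described by their correlations over the 10 arrays, which share treatment and time and are not independent. Il15 and Il15ra correlated at 0.81. Over the 10 arrays Il2rb correlated with Prf1 at 0.92, Klrb1c at 0.92, Eomes at 0.90, Ncr1 at 0.78 and Tbx21 at 0.74, but with Il15 at 0.58 and with Il15ra at 0.27. Of all genes, those most like Il15 were Psmb10, Eif2ak2, Nfxl1, Casp4 and Agrn, at 0.94 to 0.95. Psmb10 encodes an immunoproteasome subunit and Eif2ak2 the kinase PKR, both known as interferon-induced genes. Those most like Il2rb were Trgv1, a T cell receptor gamma variable segment, at 0.97, the chemokine gene Xcl1 at 0.96, Gzmb and Klrc1 both at 0.95, and Plscr2 at 0.94. Those most like Prf1 were Klrc1, which encodes the inhibitory receptor NKG2A, at 0.93, the T cell receptor subunit gene Cd3e at 0.93, Gzmc at 0.92, Il2rb at 0.92 and Olfr1095 at 0.91.

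Regulators of Il15 transcription included genes that were higher with adiponectin at every time. Of 9 measured genes (11 listed), 4 rose over all times and 0 fell, against 2.05% and 0.371% of all genes, with a list median of 0.28 against 0.01 over all genes. They were Irf7 (1.76 ± 0.44), Stat2 (1.52 ± 0.21), Irf1 (0.79 ± 0.26) and Irf9 (0.72 ± 0.08; SD, n = 5 pairs). Irf7 amplifies type I interferon, Stat2 and Irf9 are parts of the interferon-activated complex ISGF3, and Irf1 is a direct activator of Il15. The Irf1 difference was 1.20 at 4 h and 0.49 at 72 h. All 4 passed the early test, and Irf7, Stat2 and Irf9 passed the late test. Without the 120 h pair the late adjusted p was 0.2049 for Irf7, 0.08591 for Stat2 and 0.387 for Irf9, and without the 72 h pair it was 0.4479 for Irf9.

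Downstream of the receptor, 1 of 19 measured genes rose over all times and 0 fell, against 2.05% and 0.371% of all genes, with a median of 0.11. The riser was Socs1, a feedback inhibitor of Jak kinases, which was 1.39 higher at 4 h and 0.18 higher at 120 h (mean 0.78 ± 0.52, SD, n = 5 pairs; adjusted p = 0.02512). That call was lost without the 4 h (adjusted p = 0.0734), 10 h (0.08713) or 24 h pair (0.1474). Its early effect was 1.12 (adjusted p = 0.001272). The kinase gene Pim1, a Stat5 target, had the reverse order, with differences of 0.08, -0.12, 0.34, 0.67 and 0.80, and rose in the late cultures by 0.74 (adjusted p = 0.03488), a call lost without either late pair. Socs3 was 1.02 higher at 4 h and between 0.06 and 0.24 higher at the other times (adjusted p = 0.3099 over all times).

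Among 12 other genes of common gamma chain cytokines and receptors, 1 rose and 0 fell, against 2.05% and 0.371% of all genes, with a median of 0.05. Il21r, the interleukin 21 receptor gene, was between 10.44 and 10.90 in the controls and between 11.12 and 11.64 with adiponectin. Its difference of 0.76 ± 0.07 (SD, n = 5 pairs; adjusted p = 0.0001145) varied little with time. Il2ra, the alpha chain of the interleukin 2 receptor, followed an order like that of Il2rb, with differences of -0.05, 0.17, 0.82, 0.77 and 1.34, but passed neither the test over all times (adjusted p = 0.1099) nor the late test (adjusted p = 0.06585). Unlike Il2rb, its control level dropped with time, from 9.98 at 4 h to 7.56 at 120 h. Il7r had a mean difference of -0.24 (adjusted p = 0.3122).

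Of 28 measured NK surface receptors and adaptors (32 listed), 3 rose over all times and 0 fell, against 2.05% and 0.371% of all genes, with a median of 0.05. Klrk1, which encodes the activating receptor NKG2D, lay between 6.22 and 6.79 in the controls and at 7.61, 8.49, 9.47, 8.47 and 8.17 with adiponectin, so it was already apart at 4 h and furthest apart at 24 h (1.88 ± 0.63, SD, n = 5 pairs; adjusted p = 0.0001781). Slamf7 differed by 1.06 ± 0.18 and Slamf6, another receptor of the SLAM family, by 0.76 ± 0.21. In the late cultures Klrc1 (0.95, adjusted p = 0.004222) and Cd96 (0.99, adjusted p = 0.03682), both receptors of NK and T cells, also rose, so that 5 rose and 0 fell late, against 0.863% and 0.0802% of all genes. All 5 late calls were lost without the 120 h pair, and those of Klrc1, Cd96, Klrk1 and Slamf6 also without the 72 h pair. With 24 h counted as late, the late adjusted p was 0.1056 for Klrc1 and 0.6428 for Cd96. Klrc1 was dim, between 4.94 and 6.56 on the 10 arrays. Of the 28 genes, 12 were never above the array median, a share not counted over all genes. In the early cultures 3 rose and 2 fell, against 1.79% and 0.476% of all genes: the fractalkine receptor gene Cx3cr1 and the Fc receptor gene Fcgr3, which macrophages also express, each fell by 0.61. Without the 24 h pair the early adjusted p was 0.1858 for Cx3cr1, 0.08685 for Fcgr3 and 0.1033 for Slamf6, and without the 4 h pair it was 0.07453 for Cx3cr1.

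A list of 26 genes joined killer granule and death ligand genes with chemokine and cytokine genes. Of these 26, 6 rose over all times and 0 fell, against 2.05% and 0.371% of all genes, with a median of 0.29. Ccl3 and Ctsc were already high in the controls, at 12.12 to 12.62 and at 12.66 to 12.96. The chemokine gene Ccl5 differed by 3.47 ± 0.52, the death ligand gene Tnfsf10 by 1.80 ± 0.51, Ccl4 by 0.76 ± 0.56, Ccl3 by 0.60 ± 0.30, and the cathepsin genes Ctsc by 0.43 ± 0.08 and Ctsw by 0.41 ± 0.09 (SD, n = 5 pairs). The Ccl4 call was lost without the 10, 24 or 120 h pair and the Ccl3 call without the 24 h pair. Ccl5 was 3.76 higher at 4 h and Tnfsf10 2.10 higher, where Prf1 was 0.10 higher. Early, 5 rose (Ccl5, Tnfsf10, Ccl3, Ccl4 and Ctsc) and 0 fell, against 1.79% and 0.476% of all genes. The early median was 0.11 against 0.04 over all genes, and the early calls of Ccl4 and Ctsc each passed in 4 of 13 alternatives. Late, 7 rose and 0 fell, against 0.863% and 0.0802% of all genes, with a late median of 0.42 against -0.03 over all genes. For late minus early, 0 passed in either direction, against 0% of all genes, and the median was 0.05 against -0.05.

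Gzmb, the main granzyme of cytotoxic lymphocytes, was at 6.57, 6.84, 6.68, 7.22 and 6.68 in the controls and at 6.83, 6.84, 8.23, 10.04 and 9.57 with adiponectin. As for Il2rb, both groups were level at 10 h and apart from 24 h on, and Gzmb rose late by 2.85 (adjusted p = 0.003674). Gzmc (2.23), Gzmd (2.73) and Gzmg (1.22) also rose late, but these neighbouring genes are close copies of each other, and how well their probe sets tell them apart is uncertain. Nkg7, a granule membrane protein gene, was lower with adiponectin at 4 h by 0.88 and higher at 120 h by 2.33. Its controls dropped from 11.64 at 4 h to 7.68 at 120 h while the adiponectin arrays lay between 10.00 and 10.75. The late rise of Nkg7 was 1.72 (adjusted p = 0.0173). With 24 h counted as late, the late adjusted p was 0.3412 for Gzmd, 0.1045 for Gzmc, 0.1141 for Gzmg and 0.5112 for Nkg7. Of these late calls, that of Gzmd held with each pair left out in turn, whereas those of Gzmb, Gzmc, Gzmg and Nkg7 were lost without the 120 h pair (adjusted p from 0.1042 to 0.4068), that of Gzmb also without the 72 h pair (0.07137), and those of Gzmg (0.06743) and Nkg7 (0.05216) also without the 24 h pair. The late call of Tnfsf10 was lost without the 120 h pair as well (0.231).

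**Figure D4:**
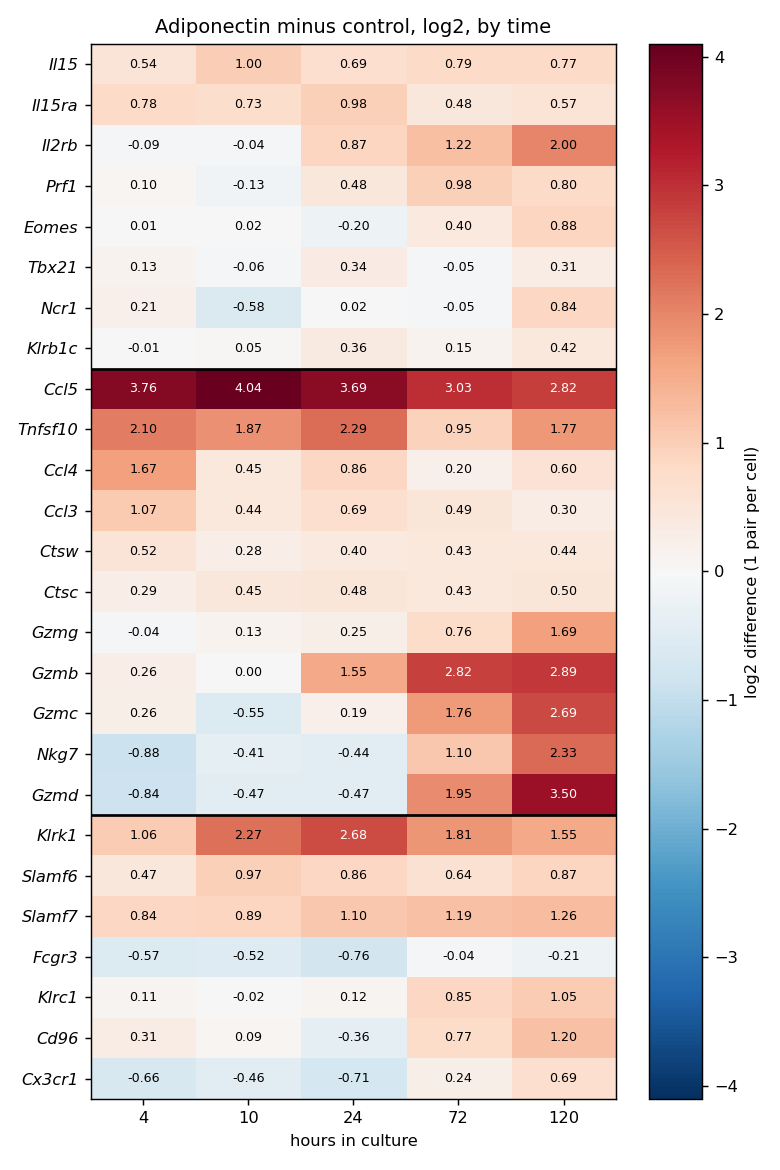
Adiponectin minus control difference (log2, colour and printed value) at each time for 26 genes, 1 pair per cell: the 8 measured members on top, then 11 killer granule, death ligand or chemokine genes and 7 NK receptor genes that passed a test over all, early or late times. Il15 runs from 0.54 to 0.77 between 4 and 120 h, Il2rb from -0.09 to 2.00 and Gzmb from 0.26 to 2.89.

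Other transcription factors of NK and innate lymphoid cells did not pass limma's test: 0 of 16 measured genes (18 listed) rose or fell over all times, early or late, with a median of 0.02. At an unadjusted p under 0.05, 1 of them, Ikzf3, was above 0 over all times, against 5.91% of all genes. Early, 4 were above 0 (Tox, Tox2, Ikzf3 and Bach2), against 12.7% of all genes, and late 1 was below 0 (Tox2), against 3.57%. The 3 with the largest mean differences were Prdm1 at -0.30, Ikzf3 at 0.25 and Bach2 at 0.15. With time in culture 1 of the 16 rose and 5 fell, against 9.81% and 8.67% of all genes.

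Cell markers were read beside these values. Of 10 NK cell markers, 7 were below the array median on all 10 arrays, namely Ncr1, Klrb1c, Klrd1, Klre1, Klra8, Eomes and Gzma, and the mean of the list ran from 6.51 to 6.72 in the controls and from 6.66 to 7.12 with adiponectin. Over all times 1 of the 10 rose, Klrk1, against 2.05% of all genes, and late 2 rose, Klrk1 and Prf1, against 0.863%. Ncr1, Klrb1c, Eomes and Prf1 are themselves members, and every other NK marker stands in the receptor or killer lists above. These counts therefore repeat values already given. The late Klrk1 call was near the threshold (adjusted p = 0.0491) and was lost in 7 alternatives, with an adjusted p from 0.05022 to 0.6722. Of 11 measured T cell markers, 0 rose and 1 fell over all times, Cd28 by 0.85, against 2.05% and 0.371% of all genes. Late, 1 rose (Cd3g by 0.76) and 1 fell (Cd28 by 0.61), against 0.863% and 0.0802% of all genes. Early, 1 rose (Cd8b1 by 0.59) and 1 fell (Cd28 by 1.01), against 1.79% and 0.476%. The late median of the list was -0.11 against -0.03 over all genes, and the late Cd28 call passed in 7 of 13 alternatives. The Cd3g call was lost without the 72 h (adjusted p = 0.1779) or the 120 h pair (0.7484), and the Cd8b1 call without any of the 10 h (0.08243), 24 h (0.2511), 72 h or 120 h pairs (0.09841 each) and with the arrays quantile-normalized again (0.06405). The mean of the T cell list was between 8.31 and 8.46 in the controls and between 8.26 and 8.47 with adiponectin, and 4 of its markers never passed the array median. Macrophage markers were high in both groups, with a list mean from 12.51 to 12.65 and from 12.55 to 12.93. Over all times 1 of 9 rose, the Fc receptor gene Fcgr1, and 0 fell, against 2.05% and 0.371% of all genes. The part of these markers in the Il2rb and Prf1 differences was not tested.

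With time in culture, B cell markers fell in 5 of 6 genes and neutrophil markers in 7 of 8, while stromal markers rose in 5 of 7 and osteoclast markers in 7 of 8. Of all genes, 9.81% rose and 8.67% fell. None of the B cell, dendritic cell, neutrophil and stromal lists held a gene that passed the test for adiponectin over all times. In that test 2.05% of all genes rose and 0.371% fell. Of the 8 osteoclast markers, 0 rose and 1 fell in that test: Atp6v0d2, a proton pump subunit gene, by 0.91 (adjusted p = 0.003462). The late median of the list was -0.79 against -0.03 over all genes.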

How the data were processed

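Total RNA of 10 marrow cultures, 1 control and 1 adiponectin culture at each of 5 times, was measured on Affymetrix arrays. The deposited values are log2 expression per probe set; RMA, Affymetrix Expression Console and Partek are named in the submitters' processing notes. Their versions and the genome build: not given in the sources used here. The quantile normalization in RMA can remove a shift common to many transcripts. The table held 35556 probe sets, of which 21789 had 1 symbol, 1621 several and 12146 none in the platform annotation. Symbols were checked against RefSeq (GRCm38.p6, 0 changed). Where a gene had more than 1 probe set (999 genes), the one with the highest mean was used, leaving 19938 genes. Each of the 8 measured members had 1.

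All adjusted p-values come from limma 3.58.1 (R 4.3.3, eBayes after lmFit), two-sided, with the Benjamini-Hochberg method over all 19938 genes and a threshold of 0.05. The fits were treatment beside a block for each of the 5 times (4 residual degrees of freedom), the same with treatment split into early and late or multiplied by log2 hours (3 residual degrees of freedom each), and log2 hours beside treatment (7 residual degrees of freedom). The time in the labels pairs each treated culture with its control. Timing relative to Il15 was tested by exact permutation. The number of arrays limits the precision, and how far a dim gene lay above background is unknown here. The tests over all times, of late minus early, of the slope of the effect and of time in culture were checked on simulated data. The early, late and permutation tests were not.

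The members and gene lists were chosen with earlier results of these data known. All members were named, with the genes of each list past the threshold over all times, the 3 with the largest mean difference, and the 5 genes most correlated with Il15, Il2rb and Prf1. Genes named for an early or late call were chosen after their values were seen. Alternatives were 2 other scalings, a filter on dim genes, the mean of probe sets, an intensity trend with a robust prior, an ordinary test, each pair left out, other treatments of time and of the 24 h pair, and each group alone.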

Additional observations from a re-analysis of the deposited data

How the results depend on the processing

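Over 1309 values of single genes under alternatives, 1070 kept their sign and their side of the threshold, 205 lost a call, 7 gained one and 27 changed sign. A late estimate without the 72 or 120 h pair has 1 pair that is assumed to vary like the others. The cause of the changes below was not tested.

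Counts of genes over all times were 408 above and 74 below 0. Those below came to 113 with quantile normalization again, 117 with an intensity trend and robust prior, 30 with log2 hours instead of time blocks, and 21 to 62 with a pair left out. Without the time block 146 were above and 4 below (1700019M22Rik, Cd209a, Crip1 and Engase, named after their values were seen). The ordinary test gave 9 above and 0 below, with 0 members. Early, it gave 0 and 0 with 0 members, and late 0 and 0 with 0 members.

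Early counts were 161 below with quantile normalization again and 173 with median centring. With a pair left out they were 182 to 358 above and 12 to 194 below, with 1 to 2 members. Leaving out the 24 h pair gave 182 above, 12 below and 1 member, Il15ra. Counting 24 h as late gave 198 above and 4 below (Aph1c, Cd209a, Cd28 and Rpph1). Under either treatment of 24 h the early value was -0.064 for Il2rb, 0.014 for Eomes and -0.019 for Prf1. With a pair left out, these early values ran from -0.064 to 0.41, from -0.098 to 0.014 and from -0.019 to 0.29, and that of Ncr1 from -0.28 to 0.12.

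Late counts were 27 below with quantile normalization again. With 24 h counted as late they were 269 above and 37 below, and Il15ra joined Il15, Il2rb and Prf1. They were 16 to 240 above and 1 to 25 below with a pair left out, with 0 to 3 members. A filter at the median level left 1 member called, Il15, since Il2rb and Prf1 were not tested. With a pair left out, the late value of Tbx21 ran from -0.052 to 0.31 and that of Ncr1 from -0.051 to 0.84, and over all times Ncr1 ran from -0.10 to 0.26.

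For late minus early, 1 gene (Gzmb) was above 0 with 24 h left out, and 0 to 5 with a pair left out. Il15 was at -0.013 with quantile normalization again and -0.016 with 24 h counted as late, and ran from -0.062 to 0.17 with a pair left out. Tbx21 was at 0.18 and 0.044 in the other scalings, 0.094 with 24 h left out and 0.17 with 24 h as late, and ran from -0.19 to 0.17. For the slope of the effect, the intensity trend gave 2 genes above (Fcgr4 and Klra2) and 3 below (Cd40, Gbp5 and Slc2a6), and 0 to 1 were above with a pair left out. These slopes ran from -0.047 to 0.052 for Il15, from -0.014 to 0.056 for Tbx21 and from -0.012 to 0.32 for Ncr1.

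For time in culture, 1 member was called in either other scaling, and 0 with the filter, in the ordinary test or in controls alone, with 1 to 3 when a pair was left out. Genes came to 985 above and 974 below on means of both arrays per time, 513 and 490 in controls alone, 857 and 799 in adiponectin cultures alone, and 674 to 2127 above and 650 to 1871 below with a pair left out. The Il15ra slope was 0.0084 in controls alone and ran from -0.064 to 0.031 with a pair left out.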
